A study of Mus musculus with 16 samples.

Results

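Open chromatin of mouse fibroblasts at day 6 of chemical reprogramming was set against that of the starting fibroblasts at day 0, a comparison over the earlier part of a 12-day induction. The regions compared were formed by merging the deposited peaks of both stages on chromosomes 1 to 19, X and Y wherever they overlapped by at least 1 bp. This gave 75026 regions, where the same merge over all 8 peak lists of the series gave 165616. A region was called gained if it was covered at day 6 only, lost if it was covered at day 0 only, and kept if it was covered on both days. The 2 lists were chosen because their depths were similar.

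The assay was ATAC-seq, in which a transposase cuts and tags DNA that is not wrapped tightly in chromatin, and the series holds 16 samples in 8 stages: day 0, days 2, 4, 6, 8, 10 and 12, and induced pluripotent stem cells (iPSC). Day 6 had 2 samples of reprogramming intermediates, made from OG2 fibroblasts of passages 1 to 3 that had been plated and changed to reprogramming medium the next day, with the medium renewed daily from day 4. Day 0 had 2 samples of mouse embryonic fibroblasts (MEF). Both stages carry the strain label 129XOG2 and come from E13.5 embryos, so the OG2 transgene, a fluorescent reporter driven by Pou5f1 sequences, is shared by day 6 and day 0. The number of embryos behind each sample and the components of the medium are not given in the sources used here. Each stage has 1 deposited peak list, so no spread between replicates could be computed, no test was run between the days, and every difference below is between 2 single lists. Exact Clopper-Pearson 95% intervals are given for shares and cover counting error only.

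Fibroblast identity is held by mesenchymal transcription factors such as the TWIST, PRRX and RUNX proteins, which act with AP-1 and TEAD factors at enhancers far from gene starts. Chemical reprogramming replaces introduced factor genes by small molecules, and in the mouse it is known to pass through intermediate states with features of extraembryonic endoderm before pluripotency genes are switched on. Open regions at gene starts tend to be shared between cell types, whereas distal regions differ more between them.

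The start windows below belong to genes whose start was covered on 1 day only and are shown because the class of the start is part of the finding for each gene. Sequences are the RefSeq windows of GRCm38.p6, from 250 bases before to 50 bases after a start, written 5′ to 3′ on the gene's strand with each CG pair in capitals. Windows in gained regions were those of Pdgfra, a receptor for platelet-derived growth factor, Lef1, a transcription factor of the WNT pathway, Dnmt3l, a cofactor of de novo DNA methylation, Hoxa10, a patterning factor, and Otx2, a homeobox factor of early epiblast and brain.
Pdgfra, chr5:75152001-75152300, plus strand: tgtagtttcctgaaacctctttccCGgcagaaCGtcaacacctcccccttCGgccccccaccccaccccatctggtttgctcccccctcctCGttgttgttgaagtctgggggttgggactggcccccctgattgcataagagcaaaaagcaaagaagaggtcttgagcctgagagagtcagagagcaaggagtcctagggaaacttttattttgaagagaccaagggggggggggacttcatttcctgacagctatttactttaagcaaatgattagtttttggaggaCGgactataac
Lef1, chr3:131110047-131110346, plus strand: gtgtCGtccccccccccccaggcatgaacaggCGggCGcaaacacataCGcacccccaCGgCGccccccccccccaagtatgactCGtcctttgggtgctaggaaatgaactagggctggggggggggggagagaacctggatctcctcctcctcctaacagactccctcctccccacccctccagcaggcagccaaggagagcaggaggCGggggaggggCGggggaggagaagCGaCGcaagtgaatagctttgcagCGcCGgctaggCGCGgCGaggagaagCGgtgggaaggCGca
Dnmt3l, chr10:78055085-78055384, plus strand: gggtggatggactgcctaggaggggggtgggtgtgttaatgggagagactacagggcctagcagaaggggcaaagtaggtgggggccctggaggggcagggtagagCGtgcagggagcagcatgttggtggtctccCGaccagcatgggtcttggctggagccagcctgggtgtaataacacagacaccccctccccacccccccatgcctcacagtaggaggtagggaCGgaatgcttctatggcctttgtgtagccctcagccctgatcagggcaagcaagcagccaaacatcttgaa
Hoxa10, chr6:52240805-52241104, minus strand: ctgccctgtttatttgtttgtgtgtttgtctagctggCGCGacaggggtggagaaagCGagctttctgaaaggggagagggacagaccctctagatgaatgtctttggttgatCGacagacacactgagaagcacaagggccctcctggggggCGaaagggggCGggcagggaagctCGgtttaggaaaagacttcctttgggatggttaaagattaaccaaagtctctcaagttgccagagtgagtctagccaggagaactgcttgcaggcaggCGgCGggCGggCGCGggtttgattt
Otx2, chr14:48665060-48665359, minus strand: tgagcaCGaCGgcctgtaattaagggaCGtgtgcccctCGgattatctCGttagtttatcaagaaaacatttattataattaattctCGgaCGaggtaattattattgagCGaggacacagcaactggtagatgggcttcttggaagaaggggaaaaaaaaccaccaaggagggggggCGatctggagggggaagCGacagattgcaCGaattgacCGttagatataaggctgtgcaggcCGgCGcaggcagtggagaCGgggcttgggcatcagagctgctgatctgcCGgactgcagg
Windows in lost regions were those of Axl, a receptor tyrosine kinase of fibroblasts and a target of YAP, and of the spermatid genes Tnp1 (a transition protein), Prm1 (a protamine) and Hmgb4.
Axl, chr7:25788684-25788983, minus strand: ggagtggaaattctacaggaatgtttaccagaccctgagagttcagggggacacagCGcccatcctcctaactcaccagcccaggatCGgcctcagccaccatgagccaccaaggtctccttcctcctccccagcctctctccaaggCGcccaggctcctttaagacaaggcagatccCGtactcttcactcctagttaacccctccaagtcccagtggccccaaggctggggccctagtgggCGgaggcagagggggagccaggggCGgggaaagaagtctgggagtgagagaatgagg
Tnp1, chr1:73015850-73016149, minus strand: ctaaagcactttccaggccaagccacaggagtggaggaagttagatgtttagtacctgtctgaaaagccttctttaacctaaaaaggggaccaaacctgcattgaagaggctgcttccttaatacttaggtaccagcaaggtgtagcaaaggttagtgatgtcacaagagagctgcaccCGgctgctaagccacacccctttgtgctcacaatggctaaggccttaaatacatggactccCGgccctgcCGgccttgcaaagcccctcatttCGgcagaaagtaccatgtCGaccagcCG
Prm1, chr16:10796774-10797073, minus strand: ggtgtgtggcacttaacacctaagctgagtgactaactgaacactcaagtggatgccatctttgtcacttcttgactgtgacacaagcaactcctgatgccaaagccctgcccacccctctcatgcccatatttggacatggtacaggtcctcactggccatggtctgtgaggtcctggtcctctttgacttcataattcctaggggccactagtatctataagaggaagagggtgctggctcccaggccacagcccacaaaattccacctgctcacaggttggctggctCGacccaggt
Hmgb4, chr4:128260846-128261145, minus strand: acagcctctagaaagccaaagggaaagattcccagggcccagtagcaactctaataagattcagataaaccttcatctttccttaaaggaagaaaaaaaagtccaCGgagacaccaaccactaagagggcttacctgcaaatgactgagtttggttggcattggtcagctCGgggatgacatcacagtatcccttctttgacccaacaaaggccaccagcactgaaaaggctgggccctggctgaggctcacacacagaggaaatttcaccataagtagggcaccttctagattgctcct
The Lef1 window held 18 CG pairs and that of Otx2 16, against 1 in the Prm1 window and 2 in that of Hmgb4. Pdgfra, with 5, and Dnmt3l, with 3, also had few. The median was 15 CG pairs over all 684 windows covered at day 6 only, 18 over the 951 covered at day 0 only and 22 over the 9535 covered on both days.

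Nearly as many bases were open at day 6 as at day 0, in more and narrower peaks. The day 6 list held 57871 peaks that covered 33.4 Mb with a median width of 495 bp, and the day 0 list 49632 peaks that covered 34.1 Mb with a median width of 601 bp. Depth was also alike: the background pileup, the lowest local read depth that the peak caller set a peak against, was 2.12 at day 6 and 1.96 at day 0. Summits had a median pileup of 20 at day 6 and 23 at day 0.

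Regions fell into 25529 gained (34.0% of the 75026), 17951 lost (23.9%) and 31546 kept. Gained regions made up 44.7% (44.3 to 45.1) of the 57075 regions of day 6, and lost regions 36.3% (35.8 to 36.7) of the 49497 regions of day 0. In a mass of cells, a region open in fewer cells and one less open in each cell cannot be told apart. The base-pair Jaccard index, the length shared over the length covered by either list, was 0.372, with 18.3 Mb shared. The balance between the changed classes depended on list length. With both lists cut to their 49632 best-scored peaks, 19388 regions were gained and 19764 lost, so the larger number of gained regions and the larger number of peaks at day 6 cannot be told apart.

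Kept regions were wider at day 0. Within them the median covered length was 646 bp at day 6 and 723 bp at day 0, and the day 0 part was the wider in 61.1% of them. This held at gene ends, with 794 bp at day 6 and 902 bp at day 0, and between genes, with 578 bp at day 6 and 631 bp at day 0.

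Regions that changed lay mostly away from genes' ends, and those that were kept lay often at them. A gene end is here a position within 1 kb of either end of a protein-coding gene. Gene ends held 6.35% (6.05 to 6.66) of gained, 9.05% (8.64 to 9.48) of lost and 32.2% (31.7 to 32.7) of kept regions. Regions inside gene bodies made up 44.1% of gained, 48.2% of lost and 34.7% of kept regions, and regions between genes 49.6%, 42.7% and 33.1% in the same order. In numbers, gene ends gave almost equal classes, 1621 gained and 1625 lost, while 12662 gained regions lay between genes against 7668 lost ones. A start window was overlapped by 2.08% of gained, 3.23% of lost and 25.5% of kept regions.

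**Figure D1:**
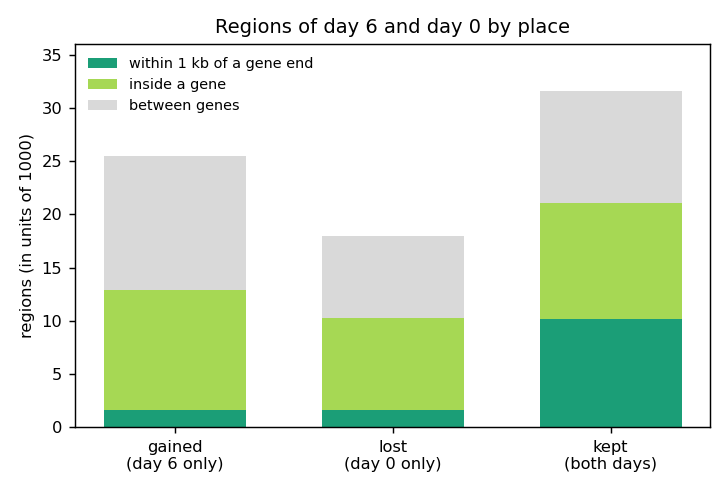
Number of regions (in units of 1000) that were gained (day 6 only), lost (day 0 only) or kept (both days), split by place: within 1 kb of a gene end, inside a gene or between genes. The gene-end part is about equal in the gained (1621) and lost (1625) bars and far larger in the kept bar (10152).

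Strong peaks were mostly kept. Ordered by the authors' score, the best decile of the day 6 list had 5.62% (5.04 to 6.24) of its peaks outside the day 0 list, and the best decile of the day 0 list had 2.82% (2.38 to 3.32) outside the day 6 list. In the weakest decile these shares were 77.5% at day 6 and 77.1% at day 0. The day 6 list had the higher share without overlap in each of the 10 deciles, but it was also the longer list. With lists of equal length, 39.5% of day 6 regions were gained and 39.9% of day 0 regions lost. Few regions sat at the edge of the overlap rule: 149 kept regions shared 50 bp or less, and 92 gained and 67 lost regions had a peak of the other day within 50 bp.

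**Figure D2:**
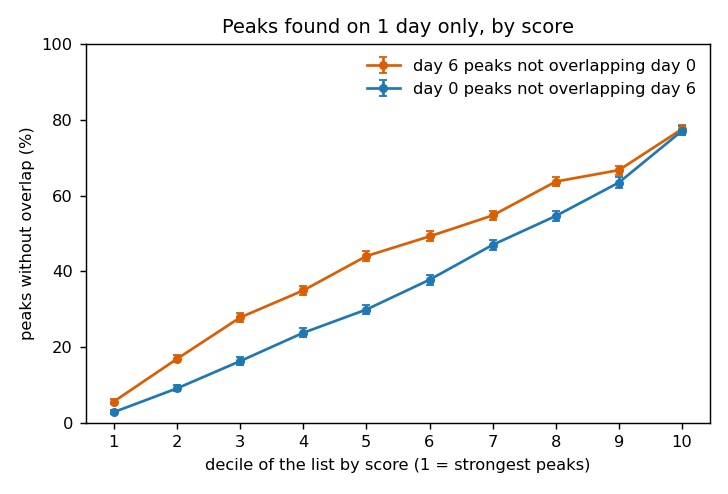
Share of peaks (%) with no overlap in the other list, by decile of the own list ordered by score (1 = strongest peaks), for day 6 peaks against day 0 and day 0 peaks against day 6. Bars are exact 95% intervals; both curves climb, to 77.5% at day 6 and 77.1% at day 0 in the weakest decile.

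The lists of the other stages, which had no part in forming the classes, separated gained from lost regions at days 2 and 4. Taken over all scores they hardly did so afterwards, though the best-scored regions still differed at day 8, as given below. At day 2, 73.7% of gained, 40.2% of lost and 94.8% of kept regions were covered, and at day 4 35.7% of gained, 9.24% of lost and 66.9% of kept ones. The background pileup was 3.08 at day 2 and 1.23 at day 4, so the levels of different days are not compared here, and the median width was 372 bp for gained, 449 bp for lost and 847 bp for kept regions. At day 8 coverage was 12.6% of gained, 10.5% of lost and 52.3% of kept regions. In iPSC it was 11.5% of gained, 12.4% of lost and 46.5% of kept regions.

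Taken over all scores, most gained regions had thus been listed before day 6, and most lost ones were absent from the day 2 list. For lost regions this depended on score. Day 2 covered 67.9% of those in the best score decile of the day 0 list and 52.25% in decile 4. It covered 47.2% in decile 5 and 24.3% in the weakest decile. Of the gained regions, 33.2% (32.6 to 33.8) were covered at both day 2 and day 4 and 40.6% at day 2 but not day 4, while 23.8% were covered at neither. Of the lost regions, 58.5% (57.8 to 59.2) were covered at neither, 32.2% at day 2 but not day 4, and 7.99% at both. With the better-scored 50% of each list, however, 92.9% of gained and 70.6% of lost regions were covered at day 2. There the classes were formed after the cut, so these regions could hold a weaker peak of the other day. Regions in no other list of the series numbered 4962 of the gained (19.4%) and 9191 of the lost (51.2%). With these left out, a choice made after seeing the data, 20567 gained and 8760 lost regions remained.

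At day 4 the contrast was widest among the strongest regions. In the best score decile of their own list, 85.5% (81.2 to 89.2) of 325 gained regions were covered at day 4, against 5.00% (2.03 to 10.0) of 140 lost regions. At day 2 the same regions were covered for 94.2% of the gained and 67.9% of the lost. In the weakest decile, day 4 covered 16.3% of 4488 gained and 5.93% of 3826 lost regions. Day 8 covered 25.85% (21.2 to 31.0) of gained and 7.86% (3.99 to 13.6) of lost regions in the best decile, and 8.36% and 6.95% in the weakest. In iPSC the best decile was covered for 7.69% of gained and 10.0% of lost regions. A gained region of high score was thus usually in the day 4 list, and a lost region of high score was rarely in it.

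**Figure D3:**
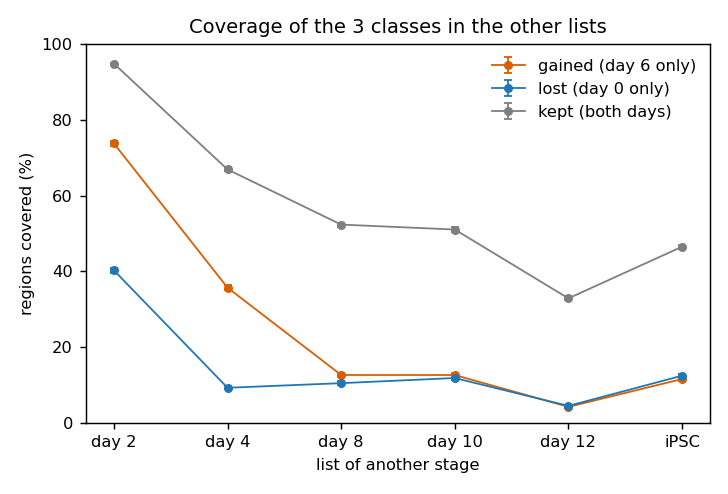
Share (%) of gained, lost and kept regions covered by the peak list of each other stage, with exact 95% intervals that are mostly smaller than the points. Gained regions lie above lost ones at day 2 (73.7% and 40.2%) and day 4 (35.7% and 9.24%), and both lie between 4.21% and 12.6% from day 8 on.

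The strongest lost regions lay at spermatid genes and were in the day 0 list alone. The region at Prm1 (mm10, chromosome 16, 10796326 to 10796909, at the gene's end and over its start window) had a pileup of 412 and a fold of 25.4 over background. Those at Prm2, the second protamine (chromosome 16, 10791380 to 10791972), at Smcp, a sperm mitochondrial protein (chromosome 3, 92583864 to 92584443), and at Hmgb4 (chromosome 4, 128260212 to 128260914) had pileups of 207, 123 and 120. The fifth, at Fabp9, a fatty-acid binding protein of testis (chromosome 3, 10193623 to 10194931, pileup 116), was covered at day 10 as well. Tnp1 had 3 lost regions, all in the day 0 list alone, with folds up to 18.5.

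The sperm markers are the same genes, Prm1, Prm2, Tnp1 and Smcp, so their count, 0 covered ends at day 6 and 4 at day 0, restates the regions above. Fibroblast markers had 8 of 8 ends covered at day 6 and 8 of 8 at day 0. Skeletal muscle markers (Myod1, Myf5, Myog) had none covered on either day. Of the 12 genes in the list of sperm and germ cell genes, 2 had a covered end at day 6 and 8 at day 0. These genes had 10 gained and 11 lost regions in all. The list includes Tnp1 and was chosen with earlier results of these data known, so its counts are not independent of the regions above. Over all 21883 genes, 11925 had a covered end at day 6 and 12030 at day 0. Dazl and Ddx4, germ cell RNA regulators, had 4 and 2 gained and no lost regions. What part a source of sperm chromatin has in the day 0 list was not tested. Of the 50 lost regions of highest score, 13 were in no other list, 8 of them at gene ends, and 27 were also in the day 2 list and no other.

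The strongest gained regions were of another form. The top 5 were 201 to 249 bp wide and lay in Chl1, a neural cell adhesion gene (chromosome 6, 103649068 to 103649288, pileup 905, fold 42.6), near Tcstv3 (chromosome 13, 120321438 to 120321638, pileup 266), in Stap2, an adaptor protein gene (chromosome 17, 56005867 to 56006115, pileup 273), and at 2 places of chromosome 1 with no protein-coding gene within 100 kb. All 5 were covered at days 8, 10 and 12 and neither at day 2 nor in iPSC. That course was found for 11 of the 50 best-scored gained regions, with a median width of 228 bp, and for 76 of all 25529. A wider kind was more frequent: 21 of the 50, with a median width of 853 bp, and 6277 of all gained regions were covered at days 2 and 4 and at no later stage. At gene ends the best-scored gained regions lay at Wls, a carrier of WNT proteins (fold 18.1), Serpina3i, a protease inhibitor gene (fold 15.2), and Tnfrsf4, a TNF receptor family member (fold 11.0). The first was again narrow, at 213 bp, while those at Serpina3i (335 bp) and Tnfrsf4 (639 bp) were covered at day 2 and at no stage from day 8 on.

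The 5 kept regions of highest score had day 6 pileups of 815 to 11036, were covered in all 8 lists and lay outside genes. The strongest, on chromosome 2 (98666571 to 98667314), had a pileup of 11036 at day 6 and 11029 at day 0. Its local background was high too, at 618 at day 6 and 741 at day 0. No regions prone to mapping artifacts were removed here from any class. Whether these 5 regions are repeats or such artifacts was not tested.

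Each region was assigned to the nearest protein-coding gene within 100 kb, which took in 21223 gained, 15326 lost and 28755 kept regions. More gained than lost regions were assigned to 5701 of 21883 genes (26.1%), and more lost than gained to 3912 (17.9%), while 10696 had no changed region. Over all genes 58.1% of changed regions were gained (48.6% with lists of equal length), and a gene with a changed region had a median of 1 more gained than lost region. Over the gene lists described below, the median gene balance, gained minus lost, ran from −1 for sperm and germ cell genes to 1.5 for inflammation and chemokine genes, and it was 0 over all genes. A large excess was seen more often for gain: 71 genes had at least 10 more gained than lost regions, and 5 genes had at least 10 more lost than gained.

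The 12 genes with the largest excess of gained regions spanned 235 to 1554 kb, against a median of 17.2 kb over all genes. Thsd4, a protein of microfibrils, had 31 gained and 5 lost regions, and Pcdh15, a cadherin of hair cells, had 29 and 3. Rbms3, an RNA-binding protein, had 41 and 16, and Auts2, a neurodevelopmental gene, 34 and 10. Ccbe1, which is needed for lymphatic growth, had 23 gained and 2 lost regions, and Col24a1, a fibrillar collagen, 21 and 1. The other 6 were Rad51b (22 and 1), Astn2 (22 and 2), Cadps (22 and 2), Pde4d (30 and 13), Cacna2d3 (24 and 7) and Sox5 (27 and 11). Day 2 covered 26 of the 27 gained regions at Sox5, a cartilage and neural factor, and 20 of 22 at Cadps, a regulator of vesicle release, but 21 of 31 at Thsd4, 26 of 41 at Rbms3 and 19 of 30 at Pde4d, beside 73.7% of all gained regions. The start window of Col24a1 was covered at day 0 and not at day 6.

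The 12 genes with the largest excess of lost regions were long as well, with 214 to 792 kb. Ablim1, an actin-binding protein, had 3 gained and 13 lost regions, Tns1, a tensin of focal adhesions, had 3 and 13, and Limch1, an activator of non-muscle myosin, had 5 and 14. Igf1r, the receptor of insulin-like growth factor 1, had 5 gained and 13 lost regions. The largest excess was that of Tmcc3, with 2 gained and 14 lost. The rest of the 12 were Ldlrad4 (5 and 15), Bbx (2 and 12), Zfhx3 (5 and 14), Gse1 (4 and 13), Ptprn2 (4 and 13), Ttc7b (3 and 12) and Ctif (2 and 11). The start window of Ptprn2 was covered at day 6 and not at day 0, and those of Tns1 and Limch1 at day 0 and not at day 6. All 24 genes kept the direction of their excess under each of the 7 other settings tried.

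Among fibroblast factors the balance was close to that of all genes. The list of 26 fibroblast and mesenchyme factors had 95 gained and 73 lost regions, 56.5% gained, with 12 genes on the gained side and 10 on the lost side and a median gene balance of 0. Twist2, a mesenchymal repressor, had 10 gained and 4 lost regions, Prrx1, a limb mesenchyme homeobox factor, 7 and 3, Zeb1, a repressor of epithelial genes, 10 and 2, and Tbx3 6 and 2. With lists of equal length the balance of Tbx3 was −1. Of the 10 gained regions of Twist2, day 2 covered 9, day 4 covered 2 and day 8 covered 1. The 12 fibroblast surface genes had 27 gained and 16 lost regions. Pdgfra stood out in this list, with 8 gained and no lost regions, and the region over its start window was in the day 6 list alone. These Pdgfra regions were weak, with folds of 2.41 to 5.11, and with the better-scored 50% of each list its balance was −1. Its neighbours in the list were nearly balanced: Cd44 had 5 gained and 4 lost regions, Nt5e 3 and 2, and Thy1 3 and 2. The balance was −2 at Cd44 with the better-scored 50% and −1 at Thy1 with assignment within 20 kb.

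Collagen and matrix genes differed among themselves. The 22 genes had 83 gained and 64 lost regions, 56.5% gained, with 12 genes on the gained side and 9 on the lost. An end was covered in 15 of the 22 at day 6 and in 20 at day 0, beside 11925 and 12030 of all 21883 genes. Tnc, the matricellular protein tenascin-C, had 14 gained and 4 lost regions, and Postn, periostin, 7 and 1. Lox, which cross-links collagen, had 0 gained and 5 lost regions, and Fn1, fibronectin, 1 and 6. Of the lost regions of Lox, 2 were at gene ends, the stronger with a fold of 6.50, and 4 of the 5 were absent from the day 2 list. Both genes kept the direction of their balance in all 7 other settings.

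Contractile and YAP-linked genes lay on the lost side of the all-gene share. The 17 contractile and SRF target genes had 45 gained and 50 lost regions, 47.4% (37.0 to 57.9) gained, and stayed below the all-gene share in all 7 other settings. Mrtfa, the actin-regulated coactivator of SRF, had 4 gained and 9 lost regions, Cald1, caldesmon, 5 and 9, Actn1, an alpha-actinin, 4 and 7, and Filip1l 10 and 6. The 12 TEAD and YAP genes had 22 gained and 29 lost regions, 43.1% (29.4 to 57.8) gained, and were above the all-gene share with the better-scored 50% of peaks. Wwtr1, the coactivator TAZ, had 3 gained and 5 lost regions and Tead1 9 and 10, and with the better-scored 50% the balance was 1 at Wwtr1 and 6 at Tead1. Axl and Ccn1, targets of YAP, had none gained and 2 lost each. The Axl start region, shown above by its window, had a fold of 3.43 at day 0 and was covered at days 2 and 4 too.

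The TGF-beta and WNT lists were close to the 58.1% gained over all genes. The 16 TGF-beta pathway genes had 59 gained and 36 lost regions, 62.1% (51.6 to 71.9) gained, but 6 genes were on the gained side and 7 on the lost side, so the sum rested on few genes. Tgfbr3, a TGF-beta coreceptor, had 14 gained and no lost regions, of which 11 were covered at day 2, 4 at day 4 and 1 in iPSC. Ltbp1, which binds latent TGF-beta, had 16 and 9, Smad2, a signal transducer, 7 and 2, and the receptor Tgfbr2 6 and 2. The inhibitor Smad7 had 0 gained and 3 lost regions and was picked after its values were seen. WNT response genes had 45 gained and 32 lost regions, 58.4% (46.6 to 69.6) gained, and were above the all-gene share in 4 of the 7 other settings. Of these, Lef1 had 9 gained and no lost regions and Tcf7, a related factor, 4 and none, while Tcf7l1, a repressor of the pathway, had 3 and 7 and Znrf3, a ligase that removes WNT receptors, 1 and 5. The balance of Znrf3 was 1 with the better-scored 50% of each list. Of the gained regions of Lef1, 7 were covered at day 2 and 3 at day 4, and folds ranged from 3.07 to 5.13. The balance of Lef1 kept its direction in 6 of the 7 other settings and was 0 in the remaining one.

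The retinoid pathway had 46 gained and 22 lost regions, 67.6% (55.2 to 78.5) gained, an interval that held the 58.1% of all genes. On the gained side were 10 genes and on the lost side 3. Covered ends went the other way: of 14 genes, 4 had a covered end at day 6 and 7 at day 0. Over all 21883 genes these numbers were 11925 and 12030. Rarb, a retinoic acid receptor that retinoic acid itself induces, had 18 gained and 4 lost regions, and Cyp26b1, which degrades retinoic acid, 8 and 3. The receptors Rara, with 1 gained and 5 lost, and Rxra, with 2 and 5, were on the other side. Cyclic AMP response genes had 75 gained and 35 lost regions, 68.2% (58.6 to 76.7) gained, with 11 genes on the gained side and 1 on the lost. Pde4d, a phosphodiesterase gene, gave 30 of the gained and 13 of the lost, and Ppargc1a, a coactivator of metabolic genes, 9 and 3, Pde10a 9 and 4 and Pde4b 9 and 6 (a balance of −2 with the better-scored 50%). Retinoid genes were above the all-gene share in 7 of 7 other settings and cyclic AMP genes in 6 of 7.

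**Figure D4:**
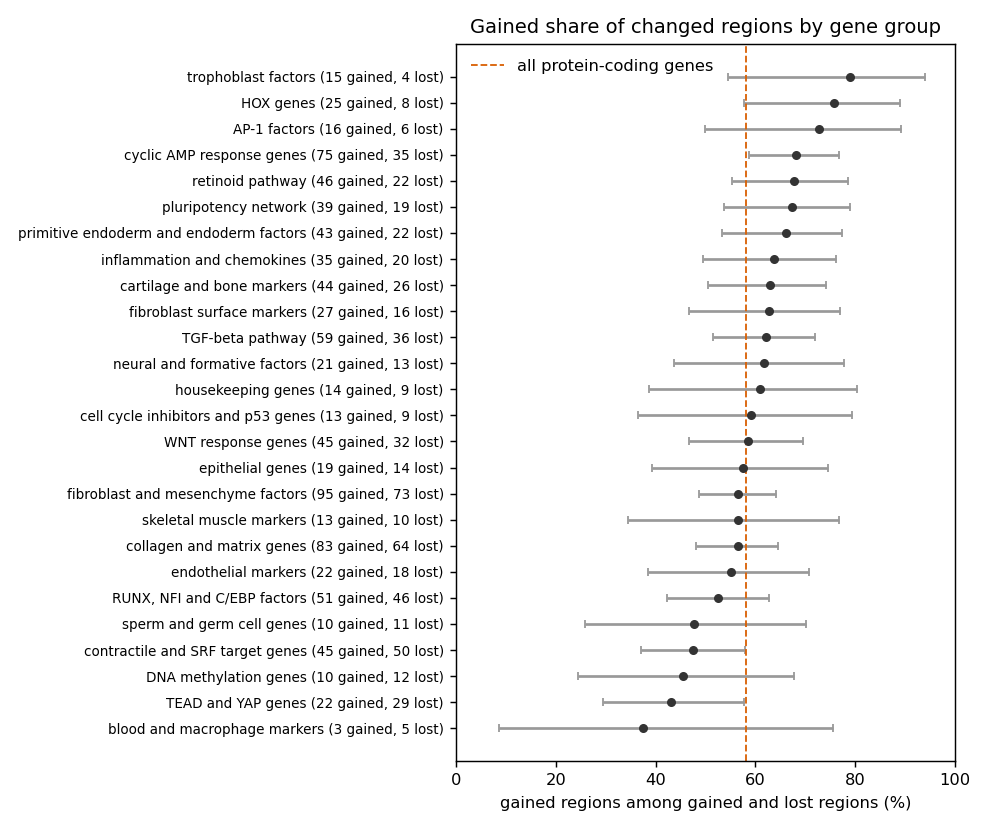
Gained regions as a share (%) of gained and lost regions for 26 gene groups, with exact 95% intervals, which cover counting error only. The dashed line is the share over all protein-coding genes, 58.1%; contractile and TEAD and YAP genes lie left of it, and HOX, retinoid and cyclic AMP genes lie right of it.

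AP-1 factors had 16 gained and 6 lost regions in 10 genes, 72.7% (49.8 to 89.3) gained, beside 58.1% over all genes. Fos had 4 and 1, Fosl2 4 and 1, Jun 4 and 2 and Atf3 3 and 1. An end was covered in 10 of the 10 at day 6 and 9 at day 0, beside 11925 and 12030 of all 21883 genes. The RUNX, NFI and C/EBP factors were split within the list, which had 51 gained and 46 lost regions. Runx1 had 13 gained and 5 lost regions and Runx2, the bone factor of that family, 13 and 6. Nfib had 3 gained and 11 lost, and Nfix 2 and 7. Of the lost regions of Nfib, 5 were covered at day 2, 1 at day 4 and 6 in iPSC. Inflammation and chemokine genes had 35 and 20, 63.6% (49.6 to 76.2) gained, an interval that held the share of all genes. Of these, Ptgs2, the inducible cyclooxygenase, had 5 and 0 and Csf1 6 and 3. Lif, a cytokine that sustains mouse pluripotency, had 1 and 5, and the chemokine Cxcl12 1 and 4. With lists of equal length the balance of Csf1 was −1.

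Lists of pluripotent and extraembryonic cells had more gained than lost regions, as had all genes together (58.1% gained), and the intervals of the pluripotency and primitive endoderm lists held that share. The pluripotency network of 25 genes had 39 gained and 19 lost regions, 67.2% (53.7 to 79.0) gained, with 14 genes on the gained side and 4 on the lost and a median gene balance of 1. Nr5a2, a nuclear receptor that can replace Pou5f1 in reprogramming, had 4 gained and no lost regions, Dppa3, a germ line and oocyte factor, 4 and none, and Sox2 4 and 1. Of the 4 gained regions of Nr5a2, 1 was covered in iPSC, and of those of Dppa3, 2 were. Pluripotency markers had 2 of 5 ends covered at day 6 (Pou5f1 and Sox2) and 1 of 5 at day 0 (Sox2), beside 11925 and 12030 of all 21883 genes. Reads from the OG2 transgene, which holds Pou5f1 sequences, could map to the Pou5f1 locus, and their part was not tested. The start windows of Pou5f1, Nanog, Sox2 and Zfp42 were covered on neither day, while that of Esrrb was covered at day 0 and not at day 6. Primitive endoderm and endoderm factors had 43 gained and 22 lost regions, 66.2% (53.4 to 77.4) gained, with Lama1, a basement membrane laminin, at 6 and 0, Cubn, an endocytic receptor of visceral endoderm, at 7 and 2 and Gata6 at 3 and 0. Pdgfra is in this list too. Primitive endoderm markers had a covered end for 2 of 5 genes at day 6 (Gata6 and Sox7) and 1 of 5 at day 0 (Gata6).

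Further lineage lists gave small numbers. Trophoblast factors had 15 gained and 4 lost regions, with Tfap2c at 4 and 0, Elf5 and Esx1 at 2 and 0 each, and Eomes at 2 and 1. Neural and formative factors had 21 and 13, with Otx2 and Neurog2 at 3 and 0 each and Fgf5 at 0 and 2. Of the 3 gained regions of Otx2, 2 were also covered in iPSC. Epithelial genes had 19 and 14, with Grhl2 at 6 and 1, Esrp1 at 2 and 0, Cdh1, E-cadherin, at 1 and 3 and Krt18 at 0 and 2. Cartilage and bone markers had 44 and 26, of which Sox5 gave 27 and 11, Sox6 8 and 6, Ibsp, bone sialoprotein, 4 and 0 and Acan, aggrecan, 0 and 2. Some of these balances turned: Eomes had −1 where at least 50% of a peak had to be shared, Krt18 had 1 with the better-scored 50%, and Sox6 had −2 with lists of equal length.

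HOX genes, which hold positional identity, had 25 gained and 8 lost regions, 75.8% (57.7 to 88.9) gained, an interval that held the 58.1% of all genes. Of 22 genes, 13 had a covered end at day 6 and 7 at day 0, beside 11925 and 12030 of all 21883 genes. Hoxc4 had 6 gained and 2 lost regions, Hoxb9 3 and 1, and Hoxa10 2 and 0. The balance of Hoxc4 was −1 with lists of equal length. The region over the start window of Hoxa10 (chromosome 6, 52240341 to 52240835) had a fold of 3.58 and was covered at days 2, 4, 8 and 10 as well. HOX genes lie close together, so a region between 2 of them counts for the nearer only.

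DNA methylation genes had 10 gained and 12 lost regions, and 6 of the 12 lost ones lay at 1 gene. Dnmt3a, a de novo methyltransferase, had 1 gained and 6 lost regions, all 6 inside the gene and covered at day 2, and 2 of them at day 4. The balance of Dnmt3a kept its direction in 6 of the 7 other settings and was 0 in the remaining one. Dnmt3l, its catalytically inactive partner, had 2 gained and no lost regions, and the one over a start window (chromosome 10, 78054382 to 78055413) had a fold of 7.51 at day 6 and was covered at days 2, 8 and 12. Tet3 had 1 and 3 (a balance of 1 with the better-scored 50%), and Dnmt1, the maintenance enzyme, 2 and 1. Cell cycle inhibitors and p53 genes had 13 and 9, with Cdkn2a at 4 and 0, Rb1 at 3 and 0, its neighbour in the list Cdkn2b at 1 and 3 and Ccng1 at 1 and 2. With assignment within 20 kb the balance of both Cdkn2b and Ccng1 was 1.

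Blood and macrophage markers had 3 gained and 5 lost regions in 10 genes, with Itgam at 1 and 2, Gata2 and Spi1 at 0 and 1 each and Tal1 at 1 and 0. Endothelial markers had 22 and 18, with Vwf at 4 and 1, Tie1 at 2 and 0, and Pecam1 and Tek at 0 and 2 each. Skeletal muscle markers had 13 and 10, with Mef2c at 5 and 2 (a balance of −1 within 20 kb), Pax3 at 3 and 1, Des at 1 and 0 and Myog at 0 and 2. Housekeeping genes had 14 gained and 9 lost regions, 60.9% (38.5 to 80.3) gained, with Ywhaz at 6 and 4 (a balance of −4 with the better-scored 50% and −1 with lists of equal length), Actb at 2 and 1 and Eef1a1 at 0 and 2.

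**Figure D5:**
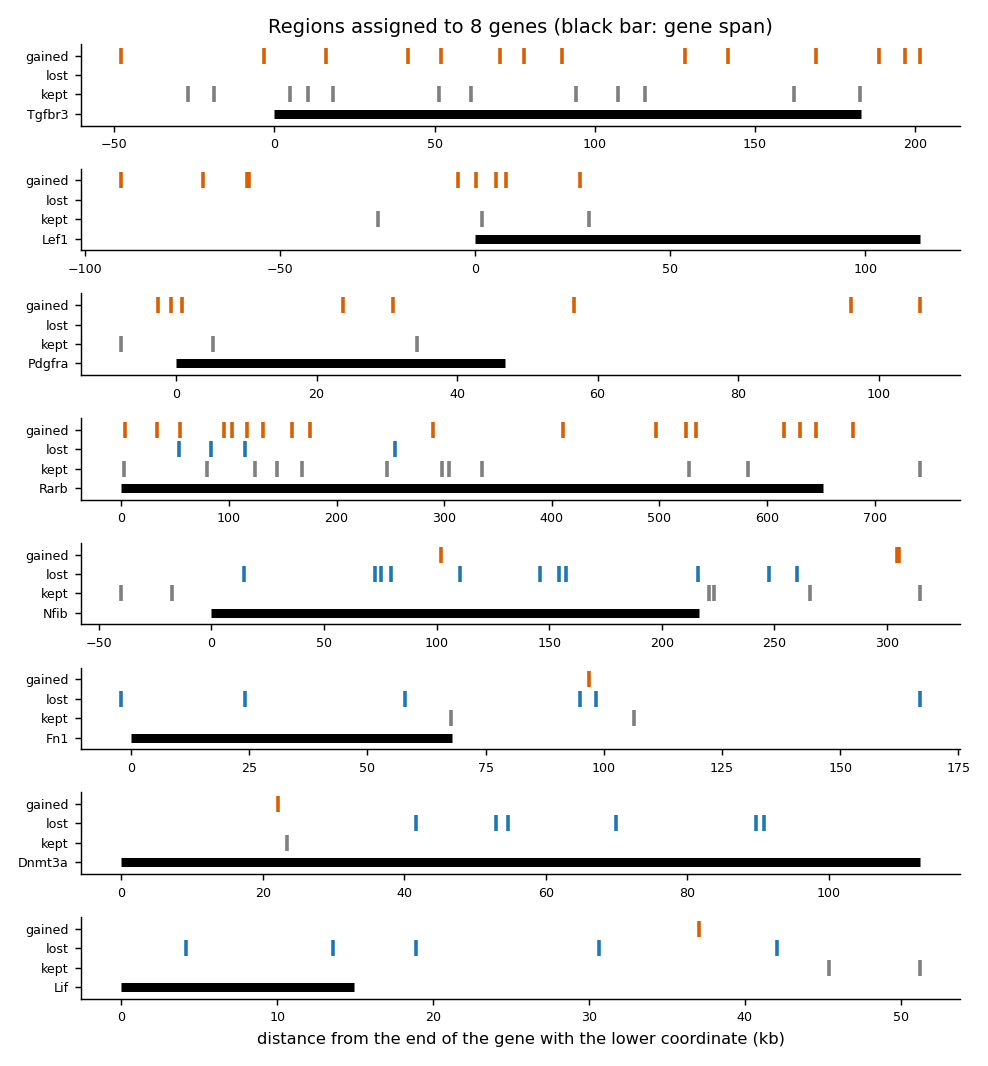
Midpoints of gained (day 6 only), lost (day 0 only) and kept regions assigned to 8 genes, by distance (kb) from the end of the gene with the lower coordinate; the black bar is the gene span. Tgfbr3, Lef1 and Pdgfra have gained and no lost regions, and the lost regions of Dnmt3a all lie inside the gene.

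Few gene starts changed class, and more were covered at day 0 only than at day 6 only. Of 17491 protein-coding genes with a RefSeq start window, 534 (3.05%) had it covered at day 6 only, 733 (4.19%) at day 0 only, 8326 on both days and 7898 on neither. Among single windows, 568 of the 684 covered at day 6 only and 623 of the 951 covered at day 0 only lay in gained and lost regions, and the remainder lay in kept regions, outside the narrower peak of the other day, as at Cxcl12. Such windows were mostly covered again in iPSC: 57.9% of those covered at day 6 only, 65.5% of those covered at day 0 only and 93.0% of those covered on both days, against 12.6% of those covered on neither.

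Letters of known factor motifs were counted on both strands of the start windows only, since no genome of the build was used here. Of the 18 motifs searched, only some are given below. The ETS letters CCGGAAG were in 10.7% (8.46 to 13.2) of windows covered at day 6 only, 5.68% (4.29 to 7.34) of those covered at day 0 only, 20.9% of those covered on both days and 11.6% of all 21262 windows. The GATA letters AGATAA were in 8.04% (6.12 to 10.3) and 4.73% (3.47 to 6.28) of the same 2 classes and in 9.65% of all windows, and the TCF/LEF letters CTTTGAT in 2.92% (1.80 to 4.48) and 1.16% (0.579 to 2.06), and in 3.22% of all. For both GATA and TCF/LEF the intervals of the 2 classes overlapped slightly. For the AP-1 letters TGANTCA the shares were 7.89% and 7.15%, with overlapping intervals, and 6.99% of all windows. For the TEAD letters GGAATG they were 12.4% and 14.9%, with 13.6% of all. Of the windows printed above, those of Otx2 and Hmgb4 held the GATA letters and those of Axl and Dnmt3l the TEAD letters.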

How the data were processed

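ATAC-seq was done on 2 samples at each of 8 stages. The tools named in the submitters' processing notes are MACS2 2.1.2, Bowtie2 2.2.5, fastp 0.20.1, deepTools 3.4.3 and SAMtools, and the build is mm10. Not given in the sources used here are their settings, any shift of reads for the transposase's cut, and whether a stage's 2 samples were pooled.

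The authors deposited 1 peak list per stage with a score, a fold (a ratio over local background), a −log10 p-value and a −log10 q-value per peak. These are the authors' values for each peak and were used to rank, filter and describe peaks within a list. In the deposited lists of day 6 and day 0 the score was 10 times the −log10 q-value, cut to a whole number. The highest q-value was 0.0500 at day 6 and 0.0496 at day 0. On other sequences, 53 peaks of day 6 and 51 of day 0 were left out. Total reads were not given. Summit pileup and background were solved from fold and −log10 p-value, within 0.001 of the deposited −log10 p-value, and the steps were tested on simulated lists.

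Genes and start windows came from RefSeq tables of GRCm38.p6 (21883 protein-coding genes, 17491 with a window, 21262 windows); windows of chromosome 18 are not used here. Scripts used Python 3.11.15, pandas 2.3.3 and scipy 1.17.1.

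The 26 gene lists (368 genes), the motifs and the comparison itself were chosen with earlier results of these data known. Genes named are the 12 with the largest excess of gained and the 12 with the largest excess of lost regions, up to 4 per list with the largest difference, and the markers. Regions named are the 5 of highest score per class and the 3 gained and 3 lost at gene ends. Alternatives were the better-scored 50% of peaks, lists of equal length, a q-value of at most 0.01, day 6 scaled to the background of day 0, 50% overlap, a merge of all 8 lists, a 2.5 kb gene end and a 20 kb gene limit. A few genes that this rule takes in are not reported here.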

Additional observations from a re-analysis of the deposited data

How the results depend on the processing

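No paired analysis was possible because each stage has 1 deposited list, and no fit without a replicate exists for the same reason. With the better-scored 50% of each list, 12047 regions were gained, 8016 lost and 16790 kept, and 41.8% of day 6 regions were gained and 32.3% of day 0 regions lost. The lists were cut before the classes were formed. A region called gained or lost could thus hold a peak of the other day that the cut had removed. Gene ends then held 10.8% of gained, 12.5% of lost and 42.0% of kept regions. Day 2 covered 92.9% of gained and 70.6% of lost regions, day 4 covered 61.4% and 25.4%, and both days 60.2% and 24.5%. The gained share over all genes was 59.7%. The balance of gained minus lost regions turned its sign at Cd44 (−2), Pde4b (−2), Pdgfra (−1) and Ywhaz (−4), and at Krt18, Tet3, Wwtr1 and Znrf3 (1 each) and Tead1 (6). It kept a similar size at 30 named genes and moved further without turning at 85. The balance of Lef1, Runx1, Twist2, Cyp26b1, Dnmt3a, Rara and Cald1 kept its direction in 6 of 7 other settings and was 0 in the remaining one.

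With lists of equal length, 39.5% of day 6 regions were gained and 39.9% of day 0 regions lost, and the gained share over all genes was 48.6%, so lost regions outnumbered gained ones. Gene ends held 5.86% of gained, 10.0% of lost and 32.9% of kept regions. Day 2 covered 80.5% of gained and 43.9% of lost regions, day 4 covered 41.4% and 11.1%, and both days 39.1% and 9.80%. The balance became −1 at Csf1, Hoxc4, Tbx3 and Ywhaz and −2 at Sox6.

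With a q-value of at most 0.01, 44.2% of day 6 regions were gained and 35.8% of day 0 regions lost. Day 2 covered 75.0% of gained and 41.5% of lost regions, and 36.6% of gained regions were covered at day 4 and 34.1% on both days. With day 6 scaled to the background of day 0, 44.3% of day 6 regions were gained, 74.6% of gained regions were covered at day 2 and the gained share over all genes was 57.4%.

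Where 50% of a peak had to be shared, 48.7% of day 6 regions were gained and 46.6% of day 0 regions lost. Gene ends held 7.43% of gained, 12.3% of lost and 33.1% of kept regions. Day 2 covered 75.5% of gained and 50.9% of lost regions, day 4 covered 37.6% and 16.9%, and both days 35.2% and 15.7%. The gained share over all genes was 54.2%, and the balance of Eomes was −1. With regions merged from all 8 lists, 43.2% of day 6 regions were gained and 35.3% of day 0 regions lost, gene ends held 5.99% of gained and 8.40% of lost regions, and day 2 covered 72.6% of gained and 38.2% of lost ones. Of the gained, 36.9% were covered at day 4 and 34.3% on both days, and the share over all genes was 57.5%.

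A gene end of 2.5 kb took in 11.0% of gained, 14.2% of lost and 36.7% of kept regions. With a gene limit of 20 kb the share over all genes was 57.0%, and the balance changed sign at Ccng1 and Cdkn2b (1 each) and at Mef2c and Thy1 (−1 each). With only regions found in another list too, 8760 lost regions remained. Except for the lists of equal length, gained regions outnumbered lost ones under each of these settings. The cause of these shifts was not tested, beyond the fewer peaks that the first 4 settings hold.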

Other observations

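MicroRNA hairpins of the RefSeq table were covered at day 6 only in 14 cases, at day 0 only in 36 and on both days in 55, and 900 were covered on neither day. Those covered at day 0 only included Mir25, Mir93 and Mir106b, which lie next to each other on chromosome 5, Mir34c, a target of p53, and Mir206, a microRNA of muscle. Mir34b, close to Mir34c on chromosome 9, was covered on both days. Mir301b, on chromosome 16, was among those covered at day 6 only. These names were picked after their values were seen. For scale, 34.0% of all regions were gained and 23.9% lost. Start windows, which are short too, were covered at day 6 only in 684 cases and at day 0 only in 951. Peaks were wider at day 0, with a median of 601 bp against 495 bp at day 6. What part peak width has in the hairpin counts was not tested.

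In windows of 1 Mb the largest excess of gained regions lay on chromosome 9 (60000001 to 61000000), with 43 gained and 12 lost regions, 30 of the changed ones at Thsd4. The stretch of chromosome 5 that holds Tgfbr3 had 31 gained and 4 lost. The largest excess of lost regions lay on chromosome 1 (132000001 to 133000000), with 10 gained and 25 lost regions, of which 7 changed regions were at Cdk18. A stretch of chromosome 3 around Mecom, a zinc finger factor, had 4 gained and 16 lost. Cdk18 and Mecom, too, were picked after their values were seen. By chromosome the gained share of changed regions ran between 53.3% on chromosome 19 and 63.0% on chromosome 10, Y aside, where only 5 regions changed. Within 5 kb of another region of its own class lay 16.5% of gained and 9.97% of lost regions. For a region of the opposite class the shares were 11.5% of gained and 15.65% of lost ones. For a kept region they were 17.3% of gained and 14.5% of lost ones. Of all changed regions 58.7% were gained, so gained neighbours were the more numerous, and the shares were not corrected for this.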
